A study of Mus musculus with 12 samples.

Results

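The LARP1 regions called in both control and Rnmt cKO CD4 T cells labelled naive were 838 merged regions out of 4717 in all. The authors' later selection of called regions against input and IgG libraries was not applied to them. Members were chosen by overlap alone: the regions of the control list and of the Rnmt cKO list were merged where they lay on the same strand and shared at least 1 nt, chromosome Y was left out, and a merged region was kept when it held regions of both lists. Of the 4717 merged regions, 17.8% met this rule, 2350 held control regions only and 1529 held Rnmt cKO regions only. Because presence in both lists chose the members, their number, scores and ranks are given as a description without a test.

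The data came from enhanced crosslinking immunoprecipitation (eCLIP), in which ultraviolet light fixes a protein to the RNA it touches, the protein is recovered with an antibody, and the cDNAs that stop beside the crosslinked base are sequenced. Both libraries were LARP1 immunoprecipitations with the same antibody (abcam ab86359) from CD4 T cells labelled naive. The cells were taken from female mice and isolated from lymph nodes with magnetic beads. The paper's methods name a CD4 T cell kit for eCLIP, and a kit for naive CD4 T cells for ribosome footprinting. The share of naive cells in these 2 libraries was not measured here. Control cells had the genotype Rnmt fl/fl CD4cre - and Rnmt cKO cells the genotype Rnmt fl/fl CD4cre +, so both groups carried the floxed Rnmt alleles, and the Cre transgene, driven by Cd4 regulatory sequence, deletes Rnmt in T cells. The age of the mice and the number pooled for each library were not given in the sources used here. Each genotype was 1 library, so no difference between genotypes has a replicate check, and p-values are not given. A region is a short stretch of called crosslink sites with a score, which is the sum of its site scores. Scores were not scaled between libraries and were therefore read as ranks within their own list, where rank 1 is the highest score of 3189 control regions or of 2367 Rnmt cKO regions, and a percentile of 100 is the highest.

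La-related protein 1 (LARP1) binds the cap and the adjoining bases of mRNAs that begin with a 5' terminal oligopyrimidine (TOP) motif, a cytidine followed by an uninterrupted run of C and U. TOP mRNAs encode the ribosomal proteins and many translation factors, and LARP1 is known to stabilise them and to hold back their translation when mTOR signalling is low. RNMT methylates the guanosine that forms the cap. In naive T cells ribosome production is low and rises on activation, which makes this class of mRNA of interest in these cells.

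The sequences at shared regions in 5'UTRs are shown first, since the highest-ranked 5'UTR members have a feature in common. Members in introns and outside genes, some of them at high ranks, were left without sequence. Each line gives the gene, the merged region in GRCm38 coordinates with its strand, and 30 bases of the sense strand written 5′ to 3′ as DNA, from 14 bases before the first base of the region to 15 bases after it. Capitals mark the merged region, up to the end of the window, and lower case marks the flanks. Bases were taken from GENCODE M21 transcripts and RefSeq promoter windows of GRCm38.p6. The first lines are among the highest-ranked 5'UTR regions of large-subunit and then small-subunit ribosomal protein genes.
Rpl13a 5'UTR chr7:45128732-45128736, minus strand: gacaagacctcctcCTTTCccaggcggctg
Rpl4 5'UTR chr9:64173376-64173380, plus strand: tgacaagtctttccTTTTCctgtgggagca
Rpl23a 5'UTR chr11:78183551-78183555, minus strand: gggctgggccatccTTTTCagccaagatgg
Rpl31 5'UTR chr1:39367913-39367916, plus strand: cctcgcgcccttccTTTCctacttgggccc
Rpl13 5'UTR chr8:123102414-123102419, plus strand: ttgcggtgcccggtCCTTTCcgctcggccg
Rpl27a 5'UTR chr7:109519199-109519209, plus strand: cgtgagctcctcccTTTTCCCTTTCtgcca
Rps12 5'UTR chr10:23787195-23787199, minus strand: ggccaccgccggccTTTTCccctgccgccg
Rps27 5'UTR chr3:90213644-90213648, minus strand: tttccgctttcgctCCTTTccggcggtgac
Rps16 5'UTR chr7:28350752-28350756, plus strand: gccccgcgcttcccTTTTCcggtcgcggcg
Rps19 5'UTR chr7:24884636-24884639, plus strand: accccgtcgttcccTTTCccctggctggca
Rps7 5'UTR chr12:28635873-28635877, minus strand: agagccgtccctctTTCTAagccggcgatc

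Of these 11 merged regions, 10 held C and T alone, and that of Rps7 ended at an A. The letters CTTTC were in 8 of the 11 windows. The next lines are among the highest-ranked regions in mRNAs of translation elongation and initiation factors and of other known TOP mRNAs, which place the same kind of site outside the ribosomal proteins.
Eef1a1 5'UTR chr9:78481665-78481670, minus strand: cgccttggacgttcTTTTTCgcaacgggtt
Eef1b2 5'UTR chr1:63177133-63177136, plus strand: cgctctgggtccttTTTTtccctcagcgct
Eef2 5'UTR chr10:81176647-81176651, plus strand: tgacgtcagcggtcTCTTCcgccgcagccg
Eif3h 5'UTR chr15:51865477-51865479, minus strand: cctcacgcttctctTTCttcctgtctggct
Eif3f 5'UTR chr7:108934421-108934423, plus strand: taggctctctctctTTCtcggcaagatggc
Tpt1 5'UTR chr14:75845332-75845335, plus strand: cgcccgcgtcggccTTTTccgcccgctccc
Naca 5'UTR chr10:128035649-128035651, plus strand: ctcgctcgttctctTTCtgccgccatcttg
Rack1 5'UTR chr11:48800361-48800365, plus strand: gaggccgctctttcTTTTTctccacagggt

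In this set too the capitals began in a stretch of pyrimidines. The last lines show shared sites of non-coding RNAs that host snoRNAs (Gas5, Snhg8, Zfas1) and of some mRNAs outside the translation and TOP lists. They end with 2 coding sequences for contrast. Use1, Hspa8, Tubb5 and Psmb1, whose 5'UTR regions had a higher mean percentile than that of Sod1, are not printed. The merged regions of Hspa8, Tubb5 and Psmb1 held A or G, so the lines look more uniform than the ranking was.
Gas5 non-coding exon chr1:161035166-161035170, plus strand: gccgccatctcagcCTTTCggagctgtgcg
Snhg8 non-coding exon chr3:123508331-123508332, minus strand: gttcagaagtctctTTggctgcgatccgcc
Zfas1 non-coding exon chr2:167063225-167063226, plus strand: ccgctctcgtccttTCgttccggcggctcc
Cox7a2l 5'UTR chr17:83514324-83514326, minus strand: gaagccgggtccttTTCtagggcggtcgca
Hsp90ab1 5'UTR chr17:45573261-45573263, minus strand: gttcgggagctctcTTGagtcacccccgcg
B2m 5'UTR chr2:122147687-122147690, plus strand: ctggctggctctcaTTTCagtggctgctac
Hspe1 5'UTR chr1:55088314-55088317, plus strand: cgcgctgcgcggccTTTTcacgtgtcccag
Sod1 5'UTR chr16:90220755-90220759, plus strand: cgccagggcctcgtTTTTTtgcgcggtcct
Cd4 5'UTR chr6:124888205-124888207, minus strand: aggcttcctgtcttTTCatttacgaacatc
Rps27 CDS chr3:90212981-90212990, minus strand: ggtagtcttgtgtgTTGGCTGCTCcactgt
Npm1 CDS chr11:33157029-33157031, minus strand: tgatgatgatgattTTGatgaagaggaaac

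Shared regions were concentrated at the top of both lists. All of the 100 highest-scoring regions of the control list and all of the 100 highest-scoring of the Rnmt cKO list lay in shared merged regions. The best-ranked region without a partner was at rank 102 in control and at rank 116 in Rnmt cKO. Above the 90 percentile mark of score, 271 of 319 control regions (85.0%) and 225 of 237 Rnmt cKO regions (94.9%) were shared, and up to the 25 percentile mark 24 of 805 (2.98%) and 70 of 591 (11.8%) were. Both shares fell with each step down in score, so a weak region of either list was seldom found again. The median score of control regions was 34.1 in shared merged regions and 4.83 elsewhere, and for Rnmt cKO regions the medians were 32.5 and 4.29.

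The members were mostly exonic, which is set out in the bar plot of annotation classes. Exons held 450 of the 838 shared regions, and 25.8% of all 1741 exonic merged regions were shared. Of these, 236 lay in 5'UTRs (28.2% of shared regions, 95% Wilson interval 25.2 to 31.3, counting error only), 126 in coding sequence (CDS, 15.0%), 48 in 3'UTRs (5.73%) and 40 in exons of non-coding transcripts (4.77%). A further 145 lay in introns, 38 within 100 nt upstream of an annotated start and 205 (24.5%) outside any gene on their strand. Of all 838 members, 270 (32.2%) had their first base within 50 nt of an annotated start. The proportion of merged regions that were shared differed widely between classes. In 5'UTRs 56.3% of the 419 merged regions were shared, in the CDS 26.1% of 482, in 3'UTRs 8.73% of 550, in introns 9.71% of 1493, and in the small upstream class 56.7% of 67. The 5'UTR share of regions found in the control list alone was 2.85% and that of regions in the Rnmt cKO list alone was 7.59%.

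**Figure D1:**
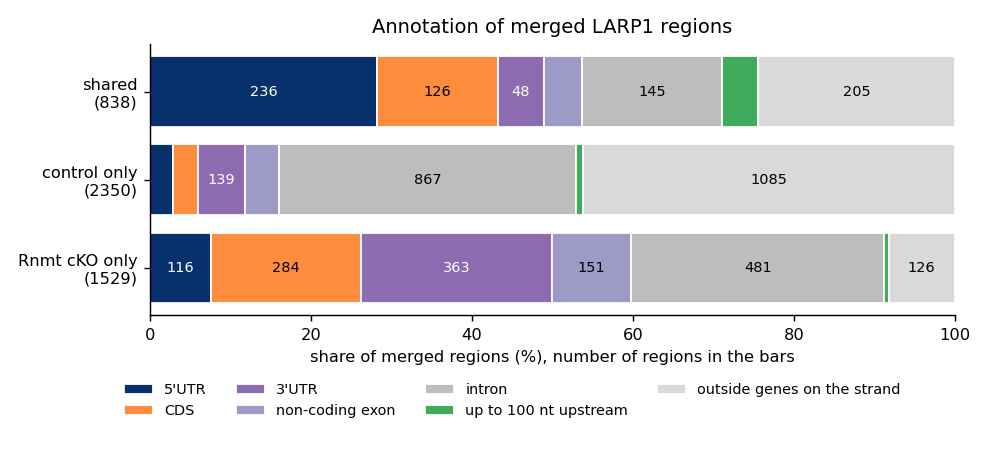
Each bar divides 1 set of merged regions by annotation class, with the share of the set in percent on the horizontal axis and the number of regions printed inside (classes under 5% carry no number). The 5'UTR block holds 236 of the 838 shared regions, against 67 of 2350 control-only and 116 of 1529 Rnmt cKO-only regions.

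In total 311 genes had a shared exonic region, 286 of them protein-coding, and 225 genes had 1 in a 5'UTR. Ribosomal protein genes made up a large part. Of the 87 annotated ribosomal protein genes, 77 had a shared exonic region and 75 had a shared 5'UTR region. They were 46 of 53 large-subunit genes and 31 of 34 small-subunit genes. Rpl18 had regions in each list that did not overlap, and Rpl12 and Rps3a1 had shared regions in the CDS alone. Ribosomal protein genes carried 188 of the shared merged regions, of 373 merged regions in these genes (50.4%).

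The 85 shared 5'UTR regions of ribosomal protein genes ranked near the top in both genotypes. Their median rank was 67 in control and 55 in Rnmt cKO, percentiles of 97.9 and 97.7, where the medians of all shared regions were percentiles of 81.2 and 76.7. The lowest control rank among them was 1336, for a region in Rpl30, which had rank 99 in the Rnmt cKO list. In the Rnmt cKO list the lowest was rank 390, in Rpl10, which was at rank 491 in the control list. Of the 85 regions, 40 had the higher percentile in Rnmt cKO and 45 in control, with a median difference of -0.114 percentile points (Rnmt cKO minus control).

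**Figure D2:**
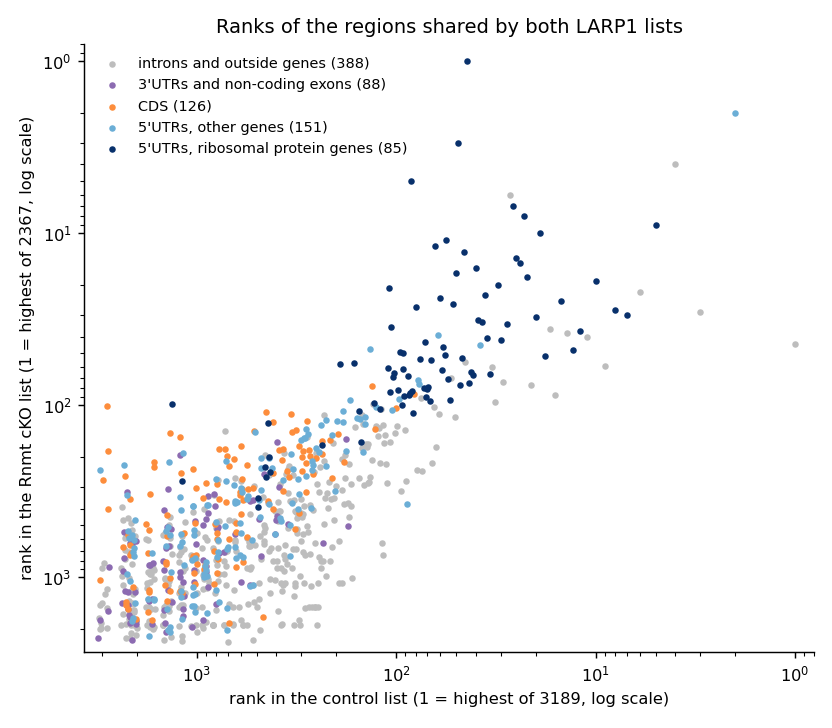
Each point is 1 of the 838 shared merged regions, with its rank by score in the control list on the horizontal axis and in the Rnmt cKO list on the vertical axis, both on log scales with the highest score at the upper right; colours give annotation and gene group. The dark blue points, 85 regions in 5'UTRs of ribosomal protein genes, gather at high ranks in both lists, with medians of 67 and 55.

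Among the large-subunit genes, Rpl13a had 3 sites and rank 19 in control and 5 sites and rank 10 in Rnmt cKO. The region of Rpl4 was at rank 23 in control and 8 in Rnmt cKO, and that of Rpl23a at 26 and 7. Rpl31 stood at 24 and 15, and Rpl27a at 22 and 18. All 5 had lower rank numbers in the Rnmt cKO list, which is the shorter list, and the percentile of Rpl27a was 99.3 in both. The 5'UTR region of Rpl13 covered the same 6 nt in both lists, with 4 sites and a score of 992 at rank 44 in control, and 6 sites and a score of 1982 at rank 1 in Rnmt cKO.

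Most of the highest-ranked small-subunit 5'UTR regions leaned the other way. Rps12 had 4 sites and rank 5 in control, and 5 sites and rank 9 in Rnmt cKO. Rps19 covered the same 4 nt with 4 sites in both lists, at rank 7 in control and 30 in Rnmt cKO. The region of Rps16 was at rank 8 and 28, that of Rps27 at 10 and 19, and that of Rps7 at 15 and 25, each higher in control. Over all small-subunit 5'UTR regions the median difference was -0.212 percentile points (14 of 33 higher in Rnmt cKO), and over the large-subunit 5'UTR regions it was 0.0265 (26 of 52).

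Coding sequence held further shared regions of the same mRNAs. Ribosomal protein genes held 100 of the 126 shared CDS regions, in 56 genes, and 54 genes had shared regions in both the 5'UTR and the CDS. These CDS regions ranked below the 5'UTR regions, with a median rank of 636.5 in control and 308 in Rnmt cKO, percentiles of 80.1 and 87.0. Of the 100, 67 had the higher percentile in Rnmt cKO and 33 in control, and 65 were wider in Rnmt cKO, none in control and 35 equal. Of the 270 merged CDS regions of ribosomal protein genes, 156 were in the Rnmt cKO list alone and 14 in the control list alone. Over all 482 merged CDS regions these counts were 284 and 72, so the lean toward Rnmt cKO-only regions was not particular to ribosomal protein genes.

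The genes with the most shared exonic regions were Rpl32 and Rpl4, with 6 each, followed by Rpl34 and Tpt1 with 5. Of 311 genes, 82 had at least 2, and 62 of these encode ribosomal proteins. In Rpl4 the 5'UTR region at rank 23 and 8 was accompanied by 5 CDS regions, with control ranks from 337 to 1807 and Rnmt cKO ranks from 113 to 1221. Rpl34 had its 5'UTR region at rank 52 in control and 26 in Rnmt cKO and its 4 CDS regions between ranks 309 and 1426 in control and between 174 and 817 in Rnmt cKO. In Rpl32 the 5'UTR region was at 104 and 69, and 1 of its 5 CDS regions stood well higher in control, at rank 465 in control and 1696 in Rnmt cKO. Within each of these 3 genes the 5'UTR region had the best rank in both lists.

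Of the 6 listed elongation factor genes, 5 had shared regions and 4 had them in the 5'UTR. Of their 22 exonic merged regions 10 were shared (45.5%), against 25.8% over all exonic merged regions. Eef1a1, which encodes the factor that delivers aminoacyl-tRNA to the ribosome, was at rank 2 in both lists, with the same 6 nt, 5 sites and a score of 2329.5 in control, and 6 sites and a score of 1836 in Rnmt cKO. Its first base lay 54 nt downstream of the nearest annotated start. Eef1b2, an exchange factor for Eef1a1, had 2 sites and rank 62 in control and 4 sites and rank 39 in Rnmt cKO. Eef2, the translocation factor, was at rank 127 and 103. Eef1d was at 265 and 211, and Eef1g had 2 shared regions, both in the CDS, with control ranks of 824 and 910 and Rnmt cKO ranks of 705 and 844.

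Among 32 initiation factor genes and poly(A) binding proteins, 12 had a shared exonic region, 11 of them in the 5'UTR. In these 32 genes 14 of 33 exonic merged regions were shared (42.4%). Subunits of eIF3, the complex that brings the small ribosomal subunit to mRNA, accounted for 8 of the 12 genes (Eif3a, Eif3e, Eif3f, Eif3h, Eif3i, Eif3k, Eif3l and Eif3m). Eif3e was highest at rank 143 in control and 118 in Rnmt cKO, Eif3h was at 157 and 119, and Eif3f had 1 site and rank 224 in control and 3 sites and rank 122 in Rnmt cKO. The helicase gene Eif4a2 was at rank 179 and 184, its cofactor Eif4b at 225 and 226, and Pabpc1, the cytoplasmic poly(A) binding protein, at 278 and 148. Eif2s3x, a subunit of the factor that carries the initiator tRNA, stood at 306 and 328. Eif4a1 had exonic regions in both lists without overlap, and the cap-binding factor Eif4e had no shared exonic region.

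Of 18 other mRNAs known or reported to carry a TOP motif, 11 had a shared 5'UTR region. In these 18 genes 18 of 43 exonic merged regions were shared (41.9%). Tpt1, a highly expressed cytoplasmic protein also called TCTP, had the same 4 nt and 4 sites in both lists, at rank 38 in control and 45 in Rnmt cKO. Naca, a subunit of the complex that guards nascent chains, had the same 3 nt at rank 78 and 72. Rack1, a protein of the small ribosomal subunit, had 1 site at rank 136 in control and 5 sites at rank 47 in Rnmt cKO. The nucleolar proteins Npm1 and Ncl were at ranks 97 and 92 and at 185 and 126. Nap1l1 (210 and 150), Uqcrh (238 and 130), Cox7c (263 and 238), Btf3 (339 and 498) and Vim (552 and 337) followed, given as control and Rnmt cKO ranks. Cct2, a subunit of the chaperonin that folds actin and tubulin, differed most and is described with the rank differences below.

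Non-coding hosts of snoRNAs, whose spliced exons often begin with a TOP motif, were represented by 7 of 69 annotated genes. Of the 15 exonic merged regions in such hosts, 9 (60%) were shared. Gas5 was highest, with 3 sites and rank 178 in control and 5 sites and rank 157 in Rnmt cKO, and its first base was the annotated start. Snhg8 was at rank 347 and 491 and lay 1 nt downstream of the start. Snhg6 was at 819 and 330, on the start itself, and Zfas1 at 875 and 425, 2 nt downstream. Protein-coding snoRNA hosts numbered 41 genes with a shared exonic region of 258 annotated. Most of them were ribosomal protein, elongation factor or other TOP genes already named, such as Rps12, Rpl13a, Eef2 and Rack1. In the 258 genes 90 of 218 exonic merged regions were shared (41.3%).

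Mitochondrial ribosomal and respiratory chain genes formed a list of 176, of which 26 had a shared exonic region, and 24 of their 27 shared regions lay in 5'UTRs. The 5'UTR regions had a median rank of 764 in control and 495.5 in Rnmt cKO. Cox7a2l, an assembly factor of respiratory supercomplexes, was highest at rank 77 in control and 75 in Rnmt cKO. Atp5mpl, a small subunit of the ATP synthase, was at rank 254 and 178. Of 20 listed nucleolar and ribosome assembly genes 3 had a shared exonic region (Npm1, Ncl and Fbl). The list was not complete, and Emg1, Polr1c and Npm3, which the paper counts among ribosome biogenesis factors, also had a shared 5'UTR region. Of 30 splicing factor genes 6 had a shared exonic region, with Snrpf highest at rank 288 in control and 155 in Rnmt cKO. Over all exonic merged regions 25.8% were shared. The share was 55.1% of 49 in the mitochondrial list, 30.8% of 13 in the nucleolar list and 24% of 25 in the splicing list. The last 2 were thus near the share over all exons. Neither Rnmt nor Larp1 nor Ramac, the gene of the RNMT cofactor, had a shared exonic region.

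Outside the ribosomal, translation and TOP lists, the 10 best 5'UTR regions covered chaperones, housekeeping enzymes and an antigen-presentation gene. The chaperone genes were Hsp90ab1 (rank 105 in control and 107 in Rnmt cKO), Hspe1 (152 and 121) and Hspa8 (184 and 109). B2m, the light chain of class I histocompatibility molecules, had 2 sites at rank 171 in control and 4 sites at rank 94 in Rnmt cKO. It overlapped the gene Patl2 on the other strand. Sod1, a superoxide dismutase, had 2 sites at rank 284 and 5 sites at rank 137. Tubb5, a beta-tubulin, was at rank 199 and 123, Use1, a SNARE protein, at 144 and 129, and Psmb1, a proteasome subunit, at 147 and 187. Of these 10 regions, counting Cox7a2l and Atp5mpl above, all lay within 14 nt of an annotated start.

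The T cell identity of the samples could not be read from the shared regions, since a LARP1 region is not an expression level. Of 16 T cell marker genes, Cd4 was the only 1 with a shared exonic region. It lay in the 5'UTR, with 1 site at rank 1032 in control and 3 sites at rank 572 in Rnmt cKO. Tcf7, also among the 16, had shared regions in introns, at control ranks of 994 and 2293 and Rnmt cKO ranks of 2077 and 787. None of the markers of CD8 T cells, B cells, myeloid cells, NK cells or red cells had a shared exonic region (17 genes in all). Over all 55450 annotated genes only 311 had a shared exonic region. The absence of such regions from lists this short therefore says nothing of the cell types present. In a bulk preparation fewer cells of a type and less RNA per cell cannot be told apart, and neither was measured by these lists.

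**Figure D3:**
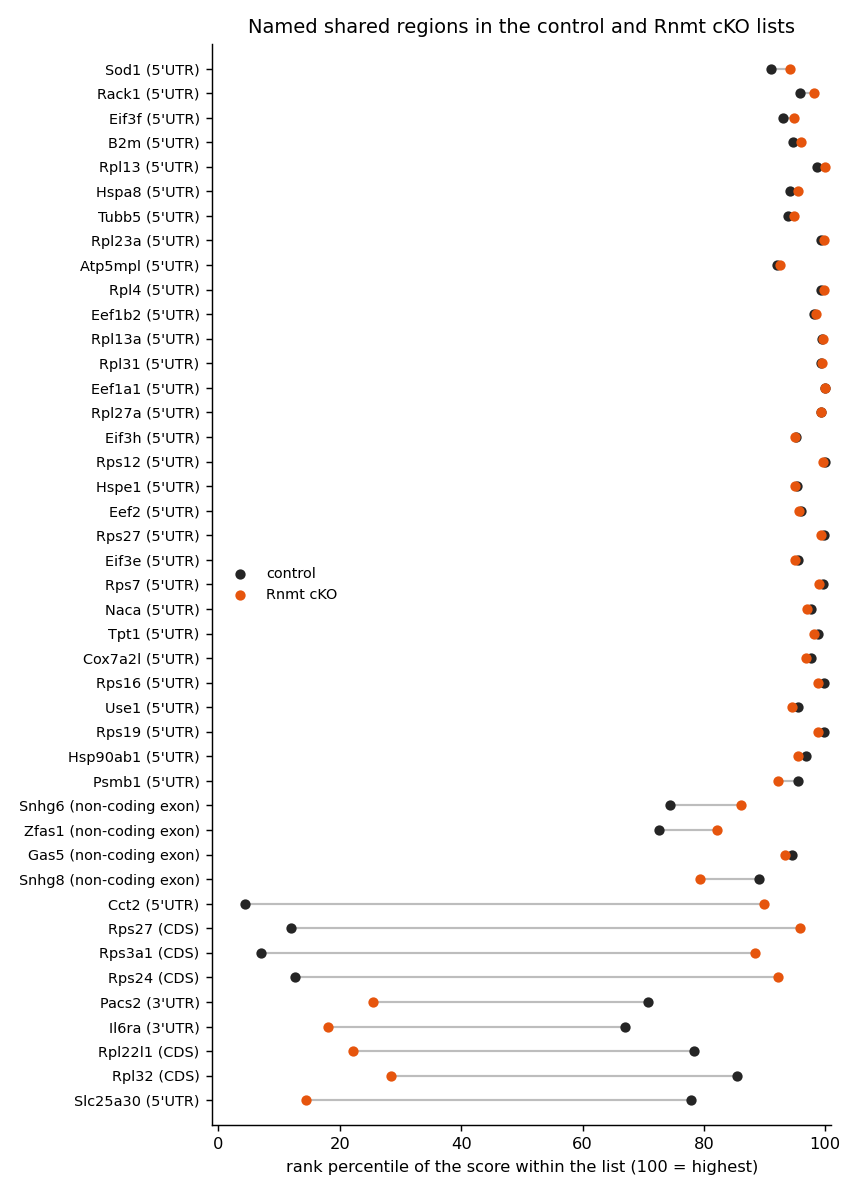
Each line is 1 named shared region, with its rank percentile within the control list (black) and within the Rnmt cKO list (orange) on the horizontal axis, where 100 is the highest score. The upper 30 lines, regions in 5'UTRs, lie above 90 in both lists, and the lowest 9 lines are exonic regions with large differences in either direction.

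Across the 450 exonic regions the median absolute difference between the 2 percentiles was 5.77 points, and it was 2.5 points in 5'UTRs, 7.90 in the CDS and 15.2 in 3'UTRs. The 5'UTR regions had median percentiles of 89.5 in control and 90.5 in Rnmt cKO, near the upper limit of the scale, where there is less room to differ. Over all 838 members it was 8.96 points, 72 regions were more than 25 points higher in Rnmt cKO, and 116 were more than 25 points higher in control. The direction differed by class. CDS regions had a median difference of 3.21 points (Rnmt cKO minus control) with 80 of 126 higher in Rnmt cKO, whereas regions outside genes had -9.31 with 33 of 205 higher in Rnmt cKO, and introns -4.26 with 47 of 145. A percentile depends on what else is in its list, and the control list held more regions without a gene than the Rnmt cKO list (1085 against 126 among the unshared).

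The 4 exonic regions named here for large rank differences toward Rnmt cKO had 1 site in control and 3 to 5 sites in Rnmt cKO. In the 5'UTR of Cct2 a single control site with a score of 0.355 (rank 3050) lay inside a Rnmt cKO region of 5 sites with a score of 105 (rank 239). The CDS region of Rps27 was at rank 2810 in control and 101 in Rnmt cKO, that of Rps3a1 at 2966 and 274, and that of Rps24 at 2789 and 186. In each the control region was 1 nt wide and the Rnmt cKO region between 4 and 10 nt wide. Among exonic regions the 5 largest differences toward control were in regions of 1 site in both lists. They were in Slc25a30 (5'UTR, rank 706 in control and 2028 in Rnmt cKO), Rpl32 (CDS, 465 and 1696), Rpl22l1 (CDS, 692 and 1841), Il6ra (3'UTR, 1052 and 1940) and Pacs2 (3'UTR, 931 and 1766). Il6ra encodes a receptor chain for interleukin 6, a cytokine that acts on naive CD4 T cells.

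Shared 5'UTR regions lay at the very beginning of transcripts, as the histograms of distance to the start show. Of 236, 206 had their first base within 50 nt of the nearest annotated start on the strand (87.3%, 95% Wilson interval 82.4 to 90.9), 134 within 10 nt (56.8%), and 50 exactly at the start or 1 nt downstream of it. The median position was 1 nt downstream of the start. Ribosomal protein genes had 72 of 85 within 50 nt and 51 within 10 nt, and other genes 134 of 151 and 83. The corresponding share within 10 nt was 44.8% for the 67 control-only and 37.9% for the 116 Rnmt cKO-only 5'UTR regions. Within 50 nt it was 80.6% for control-only (interval 69.6 to 88.3) and 65.5% for Rnmt cKO-only regions, so nearness to a start was not limited to shared regions. For the shared regions of ribosomal protein genes the middle quartiles ran from 2 nt upstream to 6 nt downstream of the start. Annotated starts, and so these distances, differ between isoforms of a gene.

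**Figure D4:**
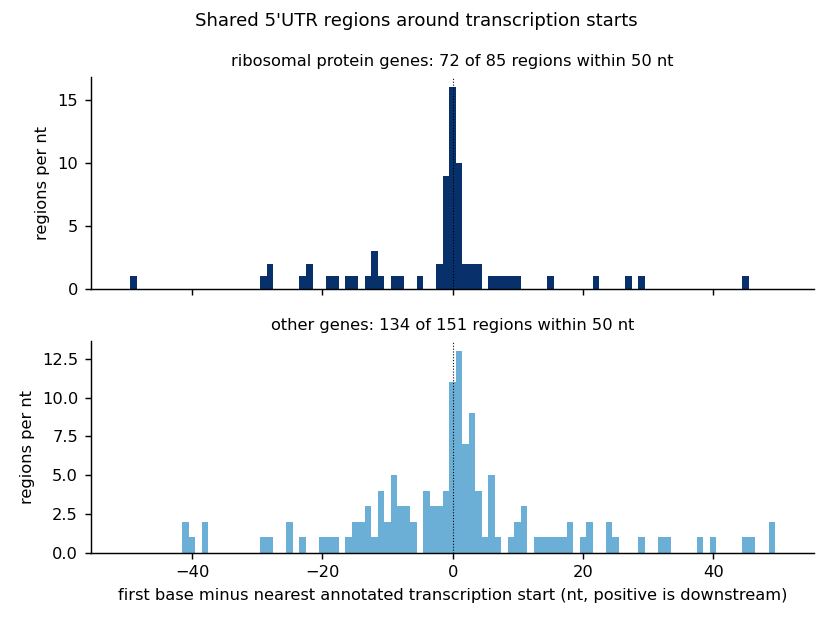
Histograms of the distance in nt from the nearest annotated transcription start to the first base of shared 5'UTR regions (positive is downstream), for ribosomal protein genes above and other genes below, with the number of regions per nt on the vertical axis. In ribosomal protein genes 26 of 85 regions sat at 0 or 1 nt, and in other genes 24 of 151.

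The base at which a shared 5'UTR region began was T in 145 of 235 regions with known sequence (61.7%, interval 55.3 to 67.7) and C in 70 (29.8%), leaving 20 that began at A or G. Among ribosomal protein genes T and C were almost level, at 42 and 36 of 85, and in the genes outside the translation and TOP lists T led with 87 of 124 (70.2%). The first base lay inside an unbroken run of at least 5 pyrimidines in 188 of 235 regions (80.0%), and of at least 8 in 145. Over the 15 nt centred on the first base, C and T made up 77.1% on average. In ribosomal protein genes the run had 8 or more pyrimidines in 68 of 85 regions (80.0%), with a median of 11, and in the genes outside those lists in 57 of 124 (46.0%), with a median of 7. For scale, 10.1% of 32841 RefSeq promoter windows had their start in such a run of at least 5 and 3.86% in a run of at least 8. Control-only 5'UTR regions began at T in 58.2% and at C in 14.9%, and Rnmt cKO-only ones in 48.3% and 14.7%. All merged 3'UTR regions began at T in 50.4%, and all merged CDS regions with known sequence in 35.2%. A first base of T was therefore not particular to shared regions or to 5'UTRs. For runs of at least 5, control-only 5'UTR regions reached 58.2% and Rnmt cKO-only 46.6%.

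Where such a run held the first base, that base had a median position of 6 in the run, and the run itself began with C in 114 of 188 cases (60.6%). Shared CDS regions seldom had the feature. Of 123 with known sequence, 14 (11.4%) began in a run of at least 5 pyrimidines, and the commonest first bases were G (46) and T (41). The letters CTTTC, searched after the sequences above had been seen, were present in 47 of 82 windows of 30 bases at ribosomal protein 5'UTR regions (57.3%) and in 24 of 139 at those of other genes (17.3%). On the opposite strand (GAAAG) they were in 2 and 1 of these windows, and 3.97% of RefSeq promoter windows of the same length around the start held CTTTC on the sense strand. The letters CTTTT, which overlap CTTTC in 4 positions, were in 17.1% and 23.7% of the same 2 sets and in 3.14% of promoter windows. In control-only and Rnmt cKO-only 5'UTR windows, CTTTC was present in 15.9% and 14.3%, near the share at shared regions of other genes. For CTTTT these shares were 12.7% and 14.3%. A match is a run of letters and says nothing of which base the protein touched.

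The plot of end offsets compares the extent of shared regions between the lists. The first and last base were the same in 411 of 838 regions (49.0%). Of these, 265 were 1 nt wide in both lists, where the overlap rule itself fixes the match. Of the 354 regions wider than 1 nt in both lists, 146 were identical. Over all 838, with the 265 included, the first base was the same in 559 (66.7%) and within 1 nt in 706. Where the first base differed, the Rnmt cKO region began upstream in 232 and downstream in 47. Where the last base differed, it ended downstream in 220 and upstream in 38. The control region lay inside a longer Rnmt cKO region in 345 cases, and the reverse held in 59.

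**Figure D5:**
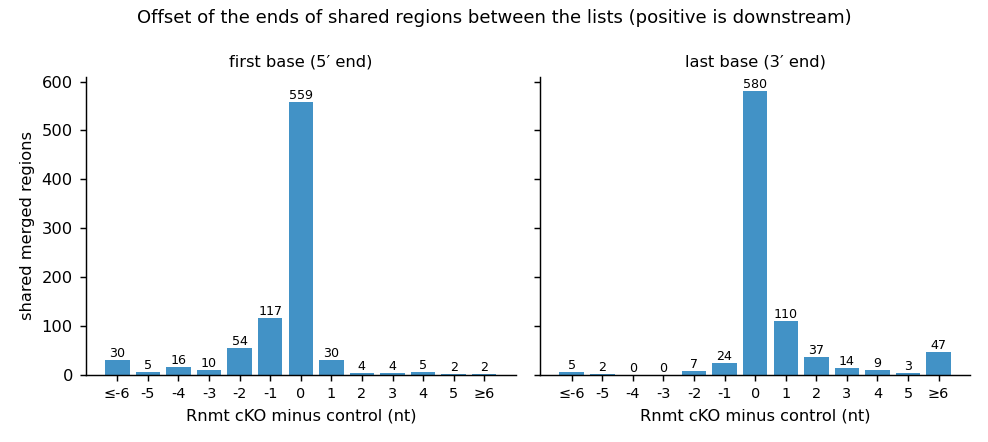
Number of shared merged regions by the position of the Rnmt cKO region's first base (left) and last base (right) relative to the control region's, in nt along the transcript, with offsets of 6 nt or more pooled at the edges. The tallest bars, 559 and 580 regions, are at 0 and each include the 265 regions of 1 nt in both lists, which match by the overlap rule, and the others lean upstream at the first base and downstream at the last base.

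Shared regions were short, with a median merged width of 3 nt and a maximum of 46 nt. The Rnmt cKO region was the wider in 355 (42.4%), the control region in 65, and 418 were equal. By sites the counts were 391, 54 and 393. In total the shared regions covered 3497 nt with 2118 sites in Rnmt cKO, and 1827 nt with 1462 sites in control. In 5'UTRs the Rnmt cKO region was wider in 145 of 236, in the CDS in 76 of 126, and outside genes in 43 of 205. This difference moved with the lists as a whole, since regions of at least 2 sites made up 45.3% of the Rnmt cKO list and 17.4% of the control list, and among unshared regions 34.7% and 7.23%. The part of sequencing depth in it was not tested, as the lists carry no read counts.

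Shared regions outside exons had high ranks of their own. The 4 best intronic members were in Trpv1 (rank 4 in both lists, 6 sites in control and 8 in Rnmt cKO), the lincRNA 5730403I07Rik (27 and 6), Ccnd3, the gene of a D-type cyclin (11 and 40), and Dnm3 (33 and 60). Of the 205 members outside genes on their strand, 66 lay opposite a gene and 139 had no gene on either strand. The best were on chromosome 16 at chr16:3110221-3110226 (rank 6 in control and 22 in Rnmt cKO), on chromosome 5 opposite Cit (3 and 29), on the X chromosome (1 and 44) and at chr9:3260414-3260417 (17 and 36). All 4 ranked lower in the Rnmt cKO list. Of the 205, 132 were identical in extent between the lists, and 77 of the 132 were 1 nt wide in both, which the overlap rule makes identical.

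The 38 members just upstream of annotated starts were a further set. Of these, 33 lay upstream of pseudogenes, between 3 and 85 nt before the annotated start with a median of 38 nt, and 10 of the 33 pseudogenes carry an Rpl or Rps name. Processed pseudogenes are near-identical copies of mRNAs, so which of the copies a region belongs to is uncertain. These 33 had median ranks of 690 in control and 612 in Rnmt cKO, and 9 more members lay in pseudogene exons. The sequence of the mRNA and of its copies was not compared.

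In 3'UTRs and other non-coding exons few members ranked high. None of the 48 shared 3'UTR regions lay above the 90 percentile mark of either list. Klf13, a zinc finger transcription factor, was at rank 385 in control and 298 in Rnmt cKO, Gm10031 at 407 and 561, Wdr89 at 876 and 338, and Srrm2, a splicing cofactor, at 640 and 562. The region of Gm10031 lay in a stretch of T. Among non-coding exons outside snoRNA hosts the best were Ppib (394 and 163), Malat1 (459 and 251), Gm10076 (175 and 504) and Gm42418 (398 and 443), a gene that overlaps ribosomal RNA sequence.

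At the edge of the rule, 16 shared members overlapped by only 1 nt although both regions were wider. The best-ranked were in the 5'UTR of Hnrnpa0 (chr13:58128550-58128556, rank 478 in control and 310 in Rnmt cKO), outside genes opposite Osbp (313 and 453) and in the 5'UTR of Mrpl33 (723 and 507). Just outside it, 13 pairs of regions touched without overlap and 31 lay within 10 nt. The nearest pairs of highest rank were in the 5'UTR of Qars, a glutaminyl-tRNA synthetase, with 1 nt between them (rank 821 in control and 854 in Rnmt cKO), in the 3'UTR of Sp110 with 1 nt between them (1184 and 646), and in an intron of Gm21992, where they adjoined (1641 and 605).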

How the data were processed

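Deposited lists of LARP1 regions were used, from the control and the Rnmt cKO LARP1 immunoprecipitation (1 library each), of 12 libraries in the series. The score in column 5 of each deposited file was made by the authors with PureCLIP, with the size-matched input as control: reads with a random barcode were trimmed with cutadapt, aligned with STAR 2.5.2b to mm10 (GRCm38), deduplicated by barcode and filtered on mapping quality, and neighbouring crosslink sites were joined into regions. The authors' later selection against input and IgG is not applied in these files. Each score was checked to be the sum of its site scores. Sites or regions under the caller's threshold are not in the lists, and depth per region is not given in the sources used here.

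Regions were merged with Python 3.11.15 (pandas 2.3.3) on the same strand at an overlap of at least 1 nt, leaving out chromosome Y (10 regions in control and 14 in Rnmt cKO). No list held regions closer than 30 nt to each other. Merged regions were assigned to GENCODE M21 by the first class that applied (5'UTR before CDS, then 3'UTR, exons of non-coding transcripts, introns, up to 100 nt upstream, outside genes), so a base that is 5'UTR in any isoform counts as 5'UTR. Coding genes, then the shortest gene, took precedence. The merge, offsets, ranks, intervals and annotation were tested on simulated regions. Shares carry 95% Wilson intervals, which cover counting error only. With 1 library a genotype no test was made, and a score or rank difference compares these 2 libraries. The members and the gene lists were chosen with earlier results of these data known. Named regions were the best by mean percentile: 6 per ribosomal subunit in 5'UTRs, 3 per translation or TOP list, 4 per other class, 10 other 5'UTRs, 5 rank differences per direction and the genes with the most shared exonic regions. The alternatives tried were filters on score, on sites and on repeated scores, a stricter and a looser overlap, basic transcripts, and other window and distance limits. Sequences came from GENCODE M21 transcripts and RefSeq promoters (GRCm38.p6), with 0 conflicts, and intronic and intergenic members were left without sequence. A few named regions that met the rule are not reported here.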

Additional observations from a re-analysis of the deposited data

Results flagged for a closer look

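Chromosome Y was left out of the merge, although the mice were labelled female and both lists held regions on it, 10 in control and 14 in Rnmt cKO. Merged by the same rule, 3 regions on chromosome Y held regions of both lists, which is a signal in data outside the main measurement. They were 1 in an intron of Uba1y and 2 in introns of Gm47283. The origin of these regions was not tested.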

How the results depend on the processing

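Of 64 alternative values, 41 lay within the 95% interval around the reported value (for counts, within 1.5 times it) and 23 lay outside it. Leaving out a replicate was not possible because each genotype was 1 library, and for the same reason no paired fit was made. With regions above the median score of their own list alone, shared regions lay in 5'UTRs in 34.1% and within 50 nt of a start in 37.3%, the first base was the same in 63.2%, the Rnmt cKO region was wider in 47.8%, and the median absolute percentile difference was 10.5 points. With regions of at least 2 sites, 353 merged regions and 169 genes remained by construction, 41.9% lay in 5'UTRs, 7.37% in the CDS, 28.6% outside genes and 46.2% within 50 nt of a start, 57.8% shared the first base, 47.0% were wider in Rnmt cKO, and the mean pyrimidine share was 80.3%. Requiring an overlap of at least 50% of the longer region favours narrow regions by construction and gave 23.2% in 5'UTRs, 11.6% in the CDS, 29.5% outside genes, 28.1% within 50 nt of a start, 79.0% with the same first base and 26.6% wider in Rnmt cKO. Transcripts with the basic tag alone put 25.2% of members within 50 nt of a start, a limit of 10 nt put 18.02% there, and a window of 7 nt gave a mean pyrimidine share of 86.5%. The number of ribosomal protein genes with a shared exonic region lay between 63 and 78 in every alternative tried. Read depth limits which weak sites were called and was not analysed here.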

Other observations

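The following genes were picked out after their values were seen. In 11 genes the 5'UTR held 2 shared regions, and 10 of these genes encode ribosomal proteins (Fau, Rpl10, Rpl29, Rpl30, Rpl35a, Rpl38, Rpl41, Rplp0, Rps12 and Rps14). Tmsb4x, the gene of thymosin beta-4, an actin-binding peptide, was the other. In all 11 genes the region nearer to an annotated start had the better rank in both lists. The inner region of Rpl30, 91 nt downstream of a start, had 1 site at rank 1336 in control and 3 sites at rank 99 in Rnmt cKO, while the outer region, at 2 nt, was at rank 43 in control and 74 in Rnmt cKO. In Rps12 the inner region, at 64 nt, was at rank 154 in control and 108 in Rnmt cKO. The inner region of Fau, at 291 nt, was at rank 1186 and 278, and that of Rps14, at 160 nt, had 1 site in control and 7 in Rnmt cKO. In Tmsb4x the outer region had 1 site at rank 512 in control and 3 sites at rank 144 in Rnmt cKO, and the inner region had 1 site in each list, at rank 560 and 350. The order of the lists within a gene was not tested, since each genotype was 1 library.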
